A study of Mus musculus with 4 samples.

Results

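The genes described are 10 that belong to, or act beside, the vascular endothelial growth factor (VEGF) and angiopoietin systems. They are the VEGF ligands Vegfb and Vegfc, the VEGF receptors Flt1, Flt4 and Kdr, the ligand Angpt2 with the receptors Tek and Tie1, the VEGF-C processing cofactor Ccbe1 and the membrane glycoprotein Pdpn. They were taken by symbol from the authors' table of 49548 genes, as genes beside which Prox1 acts in lymphatic endothelium, and all 10 were found. The data were 4 messenger RNA libraries of mouse Neuro2A neuroblastoma cells, read at the transcript's 3′ end. A stable Tet-On line with inducible Prox1 gave 2 of them, and a stable Tet-On line with inducible GFP gave the other 2. Both lines were given doxycycline at 1 µg/mL to switch on the transgene. Both were kept under G418 at 300 µg/mL and hygromycin B at 200 µg/mL, in medium with 1 g/L glucose and 10% serum. Whether a line was 1 clone, and whether replicates were separate cultures, is not given in the sources used here. The p-values thus rest on differences among 4 libraries that may be technical in part, and line and transgene cannot be told apart.

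VEGF ligands are secreted dimers that bind receptor tyrosine kinases. FLT1 (VEGFR1) binds VEGF-A, VEGF-B and placental growth factor, KDR (VEGFR2) is the main signalling receptor of blood vessel growth, and FLT4 (VEGFR3) is the receptor of VEGF-C in lymphatic vessels. Angiopoietins act through TEK (TIE2), to which TIE1 is a partner. In lymphatic endothelium PROX1 sets cell identity, and FLT4 and podoplanin are among the genes that mark those cells.

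Prox1 itself had 1304 and 2505 normalised counts in Prox1 cells (replicates 1 and 2, the order used throughout) and 2 and 3 in GFP cells, which matches the labels. Library totals ran from 6798014 to 7683100 normalised counts. Of 15 markers of sympathetic neuroblastoma, 14 were above 0 and 13 were tested. Among these 0 rose and 9 fell, Th most, from 779 and 616 to 228 and 155, and then Chgb, from 4795 and 4498 to 1390 and 1415. Nefl was at 0 in all libraries and Nefm at 1 in 1 of them. Lists of fibroblast and pericyte genes and of macrophage genes had 0 members at the minimum mean, with summed counts of 3 to 22 and 8 to 16 per library. Here and below, a tested gene is one whose 4 normalised counts average 10 or more. Rose, fell and called mean a limma adjusted p (Benjamini-Hochberg over all genes tested) under 0.05. Of the 13 tested neuroblastoma markers 69.2% were called, and of all genes tested 16.0%.

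In Prox1 cells the lymphatic growth factor Vegfc fell 4.37-fold and the receptor Flt1 went from low counts to 0. The ligands Vegfb and Angpt2 did not pass the test. Flt4 was at 4 counts or fewer in every library, and Pdpn, Tie1 and Ccbe1 were at 0 in all 4. Of the 10 genes 7 had a count above 0 in some library and 4 reached the minimum mean. Of these 4, 2 fell and 0 rose. Over all 13290 genes tested 16.0% were called and 8.41% were called lower. Flt1 reached the minimum mean through the GFP libraries alone, so its place among the tested genes is not independent of its difference, and the count of 2 is given as a description.

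**Figure D1:**
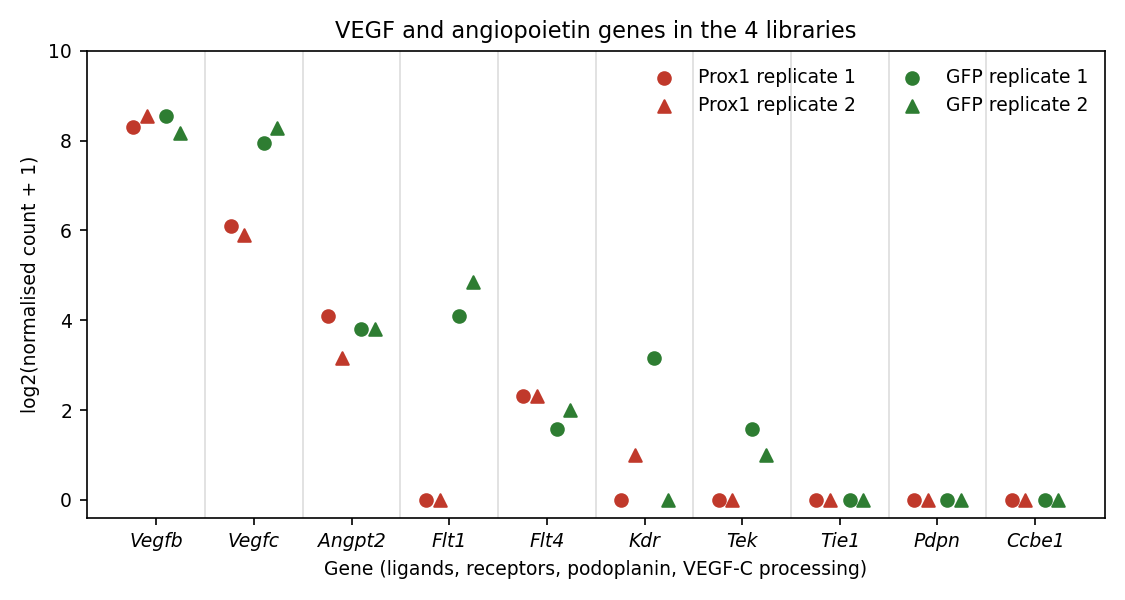
Values of the 10 genes in each library, as log2(normalised count + 1), with Prox1 libraries in red and GFP libraries in green; circles are replicate 1 and triangles replicate 2. For Vegfc and Flt1 both GFP libraries lie above both Prox1 libraries, Vegfb and Angpt2 overlap between groups, and Tie1, Pdpn and Ccbe1 lie at 0.

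The stretch upstream of the gene is shown for Vegfc and Flt1, which fell, and for Vegfb, which did not pass, so that the 3 can be read side by side. Each run is the 250 bases before the RefSeq transcript start, on GRCm38.p6, 5′ to 3′ on the gene's strand. Capitals mark matches, on either strand, to the hypoxia response core (ACGTG or GCGTG), the GC box (GGGCGG), the TATA box (TATAAA) and the ETS core (CCGGAA).
Vegfc, chr8:54077282-54077531, plus strand: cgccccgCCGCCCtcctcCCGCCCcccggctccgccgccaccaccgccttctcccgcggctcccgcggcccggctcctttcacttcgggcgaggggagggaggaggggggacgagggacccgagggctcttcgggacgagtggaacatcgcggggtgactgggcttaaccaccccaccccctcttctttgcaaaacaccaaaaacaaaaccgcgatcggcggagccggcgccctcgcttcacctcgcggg
Flt1, chr5:147726012-147726261, minus strand: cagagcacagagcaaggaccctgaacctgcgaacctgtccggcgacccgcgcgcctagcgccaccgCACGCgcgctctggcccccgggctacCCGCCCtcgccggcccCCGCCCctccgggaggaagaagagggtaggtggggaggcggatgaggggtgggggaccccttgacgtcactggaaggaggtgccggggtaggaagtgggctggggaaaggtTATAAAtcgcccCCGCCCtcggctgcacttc
Vegfb, chr19:6987652-6987901, minus strand: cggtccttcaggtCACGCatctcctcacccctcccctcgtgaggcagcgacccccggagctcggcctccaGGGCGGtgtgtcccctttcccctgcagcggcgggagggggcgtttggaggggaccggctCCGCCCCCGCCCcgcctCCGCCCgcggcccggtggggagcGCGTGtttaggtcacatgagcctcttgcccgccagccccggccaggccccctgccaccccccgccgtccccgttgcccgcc

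All 3 upstream stretches were rich in G and C, at 71.6% for Vegfc, 70.4% for Flt1 and 76.4% for Vegfb, where the median of 32851 RefSeq promoters of the same length was 52.4%. GC boxes, which the factor SP1 binds, matched 2 times upstream of Vegfc, 3 times upstream of Flt1 and 4 times upstream of Vegfb. Of all promoters 32.7% held at least 1 match. The TATA box matched once, upstream of Flt1, and 12.4% of all promoters held it. ACGTG had 0 matches in the 3 stretches, and 16.6% of all promoters held it. GCGTG matched once upstream of Flt1 and 2 times upstream of Vegfb, and 28.2% of all promoters held it. The ETS core had 0 matches in the 3, and 12.0% of all promoters held it. The motifs share no letters with each other in these 3 stretches, and a match is a description of the letters only. Promoters of 8 of the 10 genes were found in the RefSeq table. Among the other 5, Kdr held 2 GC boxes, 2 GCGTG and 1 ETS core, Flt4 held 3 GC boxes, and Tek and Tie1 held 0 matches. Pdpn held the 6-base palindrome that contains ACGTG on both strands, counted as 2 matches.

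Vegfc (ENSMUSG00000031520, mm10 chromosome 8, positions 54077606 to 54187096, plus strand) encodes VEGF-C, the ligand that drives lymphatic sprouting through FLT4. Prox1 cells held 68 and 59 normalised counts of it, and GFP cells 246 and 309. Both Prox1 libraries were below both GFP libraries, and the lower GFP library was above the higher Prox1 library by more than either pair differed. Means were 63.5 ± 6.4 and 277.5 ± 44.5 (SD, n = 2), a ratio of 4.37. The difference in log2(normalised count + 1), Prox1 minus GFP, came to -2.10 ± 0.27 (SE; 95% interval -2.68 to -1.53; limma adjusted p 0.000427). Groups did not overlap in 58.8% of all genes tested. In the authors' deposited table the log2 fold change was -2.11 with a DESeq adjusted p of 0.000171, in a comparison where 4.62% of 11933 genes passed. With any 1 library left out the limma adjusted p was 0.151 to 0.246, with a difference between -2.27 and -1.94. Without a minimum mean it was 0.126. The call ended in each of these settings, in which 0 of all genes tested were called. By fitted difference Vegfc was the 179th most lowered of 13290 genes.

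Vegfb (ENSMUSG00000024962, mm10 chromosome 19, positions 6982473 to 6987651, minus strand) encodes VEGF-B, a ligand of FLT1. Its normalised counts were 317 and 375 in Prox1 cells, and 374 and 285 in GFP cells. The groups overlapped, with the highest value in a Prox1 library and the lowest in a GFP library. Means were 346.0 ± 41.0 and 329.5 ± 62.9 (SD, n = 2). The log2 difference was 0.08 ± 0.23 (SE; limma adjusted p 0.848), and its 95% interval ran from -0.43 to 0.58. A change of 2-fold in either direction lies outside that interval. In the authors' deposited table the DESeq adjusted p was 0.949.

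Set against each other within a library, the 2 VEGF ligands had different ratios in the 2 groups. On the authors' scale of normalised count per kilobase, the level of Vegfc was 0.176 and 0.129 times that of Vegfb in the Prox1 libraries, and 0.539 and 0.888 times in the GFP libraries. On that scale Vegfc was the lower of the 2 ligands in every library, and further below in both Prox1 libraries. In normalised counts it was the higher of the 2 in GFP replicate 2, at 309 against 285. The difference between the 2 genes was not tested. An exact permutation test of 2 libraries against 2 cannot go below 0.333, and no other test of that difference was run.

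Angpt2 (ENSMUSG00000031465, mm10 chromosome 8, positions 18690263 to 18741562, minus strand) encodes angiopoietin-2, a context-dependent agonist or antagonist of TEK. Prox1 cells had 16 and 8 normalised counts, and each GFP library had 13. The Prox1 libraries lay on either side of the GFP value. The log2 difference was -0.18 ± 0.59 (SE; limma adjusted p 0.863), with a 95% interval of 0.365-fold to 2.14-fold. A change of 2-fold in either direction lies inside that interval. Angpt2 lies inside Mcph1, which is on the other strand and had 251 and 260 normalised counts in Prox1 cells against 279 and 221. The use of strand in the counting is not given, so reads of the 2 genes cannot be told apart with certainty.

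Among the receptors, Flt1 (ENSMUSG00000029648, mm10 chromosome 5, positions 147561604 to 147726011, minus strand) had the only counts above 10. Neither Prox1 library had a count, while the GFP libraries had 16 and 28. The groups did not overlap, and the GFP libraries differed from each other by less than 2-fold. The GFP mean of 22.0 ± 8.5 (SD, n = 2) was at least 7.33-fold higher when each Prox1 library is set at the 3 counts that a 0 allows. The fitted log2 difference of -4.47 ± 0.89 (SE; limma adjusted p 0.00561) depends on the pseudocount and is no bound. It was -2.40 with a pseudocount of 5 and -5.44 with 0.5, and the call held at both. In the authors' deposited table the DESeq adjusted p was 0.0256. With any 1 library left out the limma adjusted p was 0.142 to 0.246, with a difference between -4.86 and -4.09, and without a minimum mean it was 0.126. As for Vegfc, the call ended in settings where 0 of all genes were called.

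In bulk RNA, fewer cells that express a gene and less RNA per cell cannot be told apart. Flt1 is a gene of endothelial cells, among others, so the endothelial lists are given beside it. Of 20 blood endothelial markers other than the 10 genes, 15 were above 0, 6 were tested, 0 rose and 1 fell (Icam2, an adhesion molecule, from 247 and 184 to 75 and 112, limma adjusted p 0.0137, and 0.0692 without the variance trend). Icam2 did not pass in the authors' deposited table (DESeq adjusted p 0.112). The share called was 16.7% of the 6 tested, near the 16.0% over all genes tested. Summed, the 20 markers had 1162 and 1446 counts in Prox1 cells, and 1827 and 1775 in GFP cells. Most of these counts were of Egfl7, at 881 and 1105 against 1298 and 1368. Of the list, Cdh5, Cldn5, Emcn, Fli1 and Sox17 were at 0 in all 4 libraries. The other tested genes had counts in every library: Vwf (28 and 26 against 29 and 31), Tal1 (70 and 118 against 75 and 44), Lmo2 (62 and 46 against 99 and 80) and Ecscr (20 and 21 against 39 and 34). Pecam1, picked after its values were seen, was at 4 and 1 against 8 and 16. The part of endothelial cells in the value of Flt1 was not tested.

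Flt4 (ENSMUSG00000020357, mm10 chromosome 11, positions 49609263 to 49652739, plus strand), the receptor of VEGF-C, had 4 normalised counts in each Prox1 library, and 2 and 3 in GFP cells. The groups did not overlap, but by 1 count. Summed over libraries, 8 against 5 counts gave a ratio of 1.60 with an exact 95% counting interval of 0.462 to 6.22, which covers no change. Flt4 did not reach the minimum mean, and in the fit without one its limma adjusted p was 0.512.

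Kdr (ENSMUSG00000062960, mm10 chromosome 5, positions 75932827 to 75978458, minus strand), the main receptor of VEGF-A, had 0 and 1 normalised counts in Prox1 cells, and 8 and 0 in GFP cells. All but 1 of its 9 counts came from GFP replicate 1, and GFP replicate 2 was level with the Prox1 libraries. In the fit without a minimum mean its limma adjusted p was 0.615. Kdr is also on a list of 50 genes that commercial cancer hotspot panels amplify. The labels name no such panel, and the list was used because earlier results of these data pointed to it. GFP replicate 1 was at least 4-fold above replicate 2, on the normalised count + 1 scale, in 7 of the 50 panel genes, Kdr among them, and replicate 2 was as far above in 3. Among the 41 tested panel genes, which leave out Kdr, 6 and 3 differed this much. Among the 13249 tested genes outside the panel, 47 and 37 did. No such background was read for genes below the minimum mean, where Kdr lies. The 41 tested panel genes included 17 that fell, Kit among them (0 and 0 against 2215 and 734), and 1 that rose, Stk11 (1122 and 1498 against 773 and 780, limma adjusted p 0.0365, and 0.134 without the variance trend). Stk11 did not pass in the authors' deposited table (DESeq adjusted p 0.372). Of the 41 tested panel genes 43.9% were called, and of all genes tested 16.0%. Rb1, picked after its values were seen, is an example of the gap between the GFP libraries and was not called (limma adjusted p 0.0951). GFP replicate 1 held 7934 counts of it and the other libraries 124 to 137. The part of panel amplicons in the 8 counts of Kdr was not tested.

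**Figure D2:**
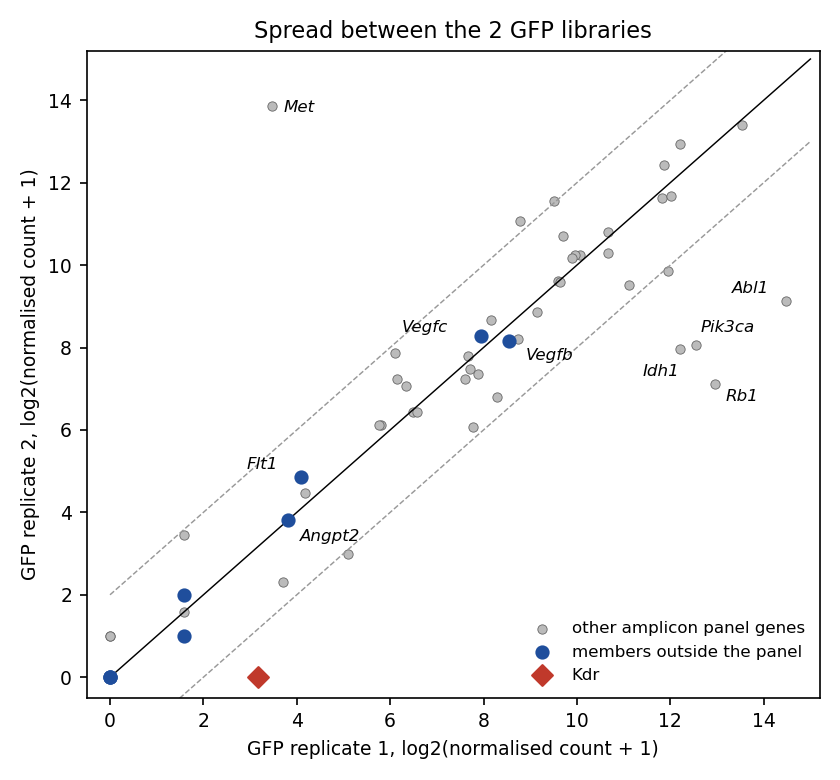
Each point is a panel gene or a gene of the set, with its log2(normalised count + 1) in GFP replicate 1 on the x axis and in GFP replicate 2 on the y axis; the solid line is equality and the dashed lines are 4-fold apart. Kdr (8 and 0 counts) lies beyond the lower dashed line, as do 6 other panel genes, and the genes of the set outside the panel lie between the dashed lines.

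Tek (ENSMUSG00000006386, mm10 chromosome 4, positions 94739289 to 94874976, plus strand), the angiopoietin receptor TIE2, had no count in Prox1 cells, and 2 and 1 in GFP cells. Both groups were at or under the floor of 3 counts per library, so no fold is given, and in the fit without a minimum mean its limma adjusted p was 0.188. Tie1 (ENSMUSG00000033191, mm10 chromosome 4, positions 118471191 to 118490061, minus strand), Pdpn (ENSMUSG00000028583, mm10 chromosome 4, positions 143267431 to 143299564, minus strand) and Ccbe1 (ENSMUSG00000046318, mm10 chromosome 18, positions 66045302 to 66302739, minus strand) were at 0 in all 4 libraries. Podoplanin, the product of Pdpn, is a lymphatic surface protein, and CCBE1 is needed for the cleavage that activates VEGF-C. A count of 0 allows up to 3 counts per library, so a difference below that level was not detectable at this depth.

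Ordered by the authors' normalised count per kilobase, the levels in GFP cells fell in the order Vegfb (84.0), Vegfc (57.9), Angpt2 (4.22), Flt1 (1.56), Kdr (0.747), Flt4 (0.600) and Tek (0.430). Vegfb, Vegfc, Angpt2 and Flt1 did not overlap with the next gene in that order, except that Flt1 (1.13 and 1.98) overlapped with Kdr (1.49 and 0). Flt4 overlapped with both of its neighbours. In Prox1 cells the order was Vegfb (88.2), Vegfc (13.3), Angpt2 (3.90), Flt4 (0.961) and Kdr (0.0933), with Flt1 and Tek at 0. Reads of 3′ libraries do not build up with transcript length, so a level per kilobase places long genes such as Flt1 lower than their counts do. In normalised counts Vegfb (374 and 285) and Vegfc (246 and 309) overlapped in GFP cells, and Flt1 (16 and 28) lay above Angpt2 (13 and 13).

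The other genes of the 2 systems were read from a list of 12 names, 1 of them an older symbol that the table does not use. The other 11 were found, 8 of them above 0 and 5 tested, of which 0 rose and 1 fell. That share is near the 16.0% called over all genes tested. The one that fell was Pgf, placental growth factor, a further ligand of FLT1. Prox1 cells had 72 and 59 normalised counts, and GFP cells had 270 and 243, without overlap. This was 3.92-fold lower, or -1.96 ± 0.26 on the log2 scale (SE; limma adjusted p 0.000608), and 0.150 to 0.246 with any 1 library left out. Vegfa, the founding member of the family, was at 1585 and 1345 against 1840 and 1636 counts, a log2 difference of -0.25 ± 0.21 (SE; limma adjusted p 0.459) with a 95% interval of 0.612-fold to 1.16-fold. Per kilobase, Vegfa was the most abundant VEGF ligand in every library, at 308 to 421. Pgf was above Vegfb in the GFP libraries, at 1.40 and 1.65 times its level, and below it in the Prox1 libraries, at 0.440 and 0.305 times. In normalised counts Pgf was below Vegfb in every library, in GFP cells at 270 against 374 and 243 against 285, so the crossing rests on the division by length.

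The co-receptors of the neuropilin family did not pass. Nrp2 was at 909 and 660 against 1009 and 1023 normalised counts (limma adjusted p 0.249), and Nrp1 was at 77 and 73 against 166 and 85 (limma adjusted p 0.199). The remaining ligands were scarce. Vegfd, the second ligand of FLT4, was at 8 and 8 against 16 and 11, Angpt4 was at 11 and 8 against 6 and 14, and Angpt1 had 1 count, in a GFP library. Adamts3, the protease that acts with CCBE1 on VEGF-C, and Ptprb, a phosphatase of TEK, were at 0 in all 4 libraries. Genes in this paragraph and Vegfa were picked after their values were seen.

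**Figure D3:**
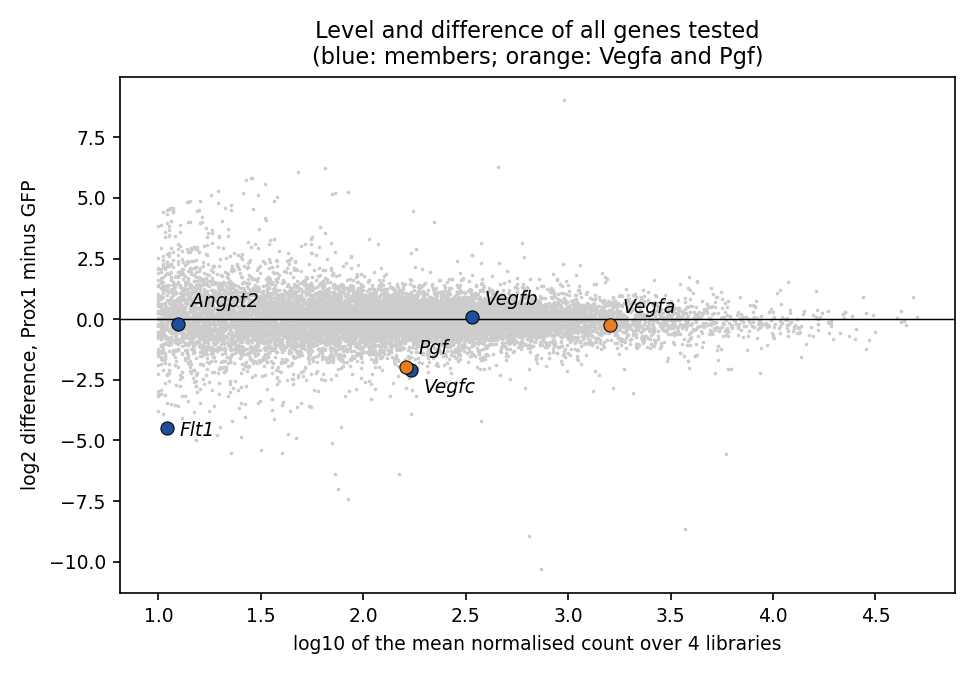
All 13290 genes tested, by the log10 of their mean normalised count (x axis) and their log2 difference, Prox1 minus GFP (y axis); blue points are genes of the set and orange points are Vegfa and Pgf. Vegfc and Pgf lie almost on each other near -2, Flt1 lies at the low end of the counts, and Vegfb, Angpt2 and Vegfa lie near 0.

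Genes that carry signals from VEGF and TIE receptors went in both directions. Of 33 genes 30 were tested, 2 rose and 4 fell, a share near the 16.0% called over all genes tested. Their median log2 difference was -0.38, where the median of all genes tested was -0.0017. Those that fell most were Pik3ca, a catalytic subunit of phosphoinositide 3-kinase, and Src, a tyrosine kinase, both genes of the amplicon panel. The 4 that fell also included Akt1, another panel gene, and Mapkapk2, which is not on the panel. Pik3ca was at 194 and 156 against 5987 and 266 counts (limma adjusted p 0.0498). Without GFP replicate 1 its log2 difference went from -2.85 to -0.61, and without GFP replicate 2 to -5.10. Its adjusted p was 0.0548 with a pseudocount of 0.5 and 0.220 without the variance trend. Src was at 13 and 24 against 80 and 132 counts (limma adjusted p 0.00233). Those that rose were Hspb1, a small heat shock protein, at 17 and 24 against 1 and 1, and Nos3, endothelial nitric oxide synthase, at 49 and 35 against 14 and 11 counts (limma adjusted p 0.0103 and 0.0264). Hspb1 reached the minimum mean through the Prox1 libraries alone, so its test is not independent of its difference. Neither passed in the authors' deposited table (DESeq adjusted p 0.147 for Hspb1 and 0.233 for Nos3), while Src did (0.00128).

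Of 7 genes whose products bind podoplanin or join it to actin, 6 were above 0, 5 were tested, 1 rose and 1 fell. Called genes thus made up a larger share than the 16.0% over all genes tested. Lgals8, which encodes galectin-8, rose 2.60-fold, from 118 and 94 to 272 and 279 counts (limma adjusted p 0.00327). Msn, which encodes moesin, a link between membrane and actin, fell 1.69-fold, from 543 and 532 to 278 and 358 (limma adjusted p 0.0335, and 0.118 without the variance trend). Lgals8 passed in the authors' deposited table (DESeq adjusted p 0.0308) and Msn did not (0.336). The list median was 0.04.

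Of 10 subunits and regulators of the hypoxia-inducible factors, which control Vegfa in many cells, 6 were tested, 0 rose and 1 fell. The median was -0.26. The share called was 16.7%, near the 16.0% over all genes tested. Egln1, the main oxygen-sensing prolyl hydroxylase, fell 2.45-fold, from 1347 and 1777 to 627 and 648 counts (limma adjusted p 0.0025). Egln1 passed too in the authors' deposited table (DESeq adjusted p 0.0315). Hif1a, picked after its values were seen, was at 441 and 552 against 496 and 464 counts (limma adjusted p 0.921).

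Lymphatic endothelial genes beyond the set did not move one way. Of 23 listed, 17 were above 0, 6 were tested, 1 rose and 2 fell, with a median of -0.37. Among all genes tested 16.0% were called, a smaller share than in this list, and the median was -0.0017. Gata2, a transcription factor of blood and lymphatic valve cells, rose 1.72-fold, from 497 and 509 to 956 and 778 counts (limma adjusted p 0.0256). Nr2f2, which encodes the nuclear receptor COUP-TFII, a partner of PROX1, fell 1.73-fold, from 468 and 473 to 276 and 269 counts (limma adjusted p 0.0252). Fgfr3, a growth factor receptor, was at 26 and 39 against 70 and 150 (limma adjusted p 0.0153) and is 1 of the panel genes. None of these 3 passed without the variance trend (limma adjusted p 0.109, 0.0935 and 0.0690). Of the 3, Fgfr3 passed in the authors' deposited table (DESeq adjusted p 0.0263), and Gata2 (0.312) and Nr2f2 (0.309) did not. Foxc2, Ccl21a, Mmrn1, Stab2, Ackr2 and Ackr3 were at 0 in all libraries, Lyve1 had 1 count, in a GFP library, and Itga9 had 1 count in 3 of the 4.

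**Figure D4:**
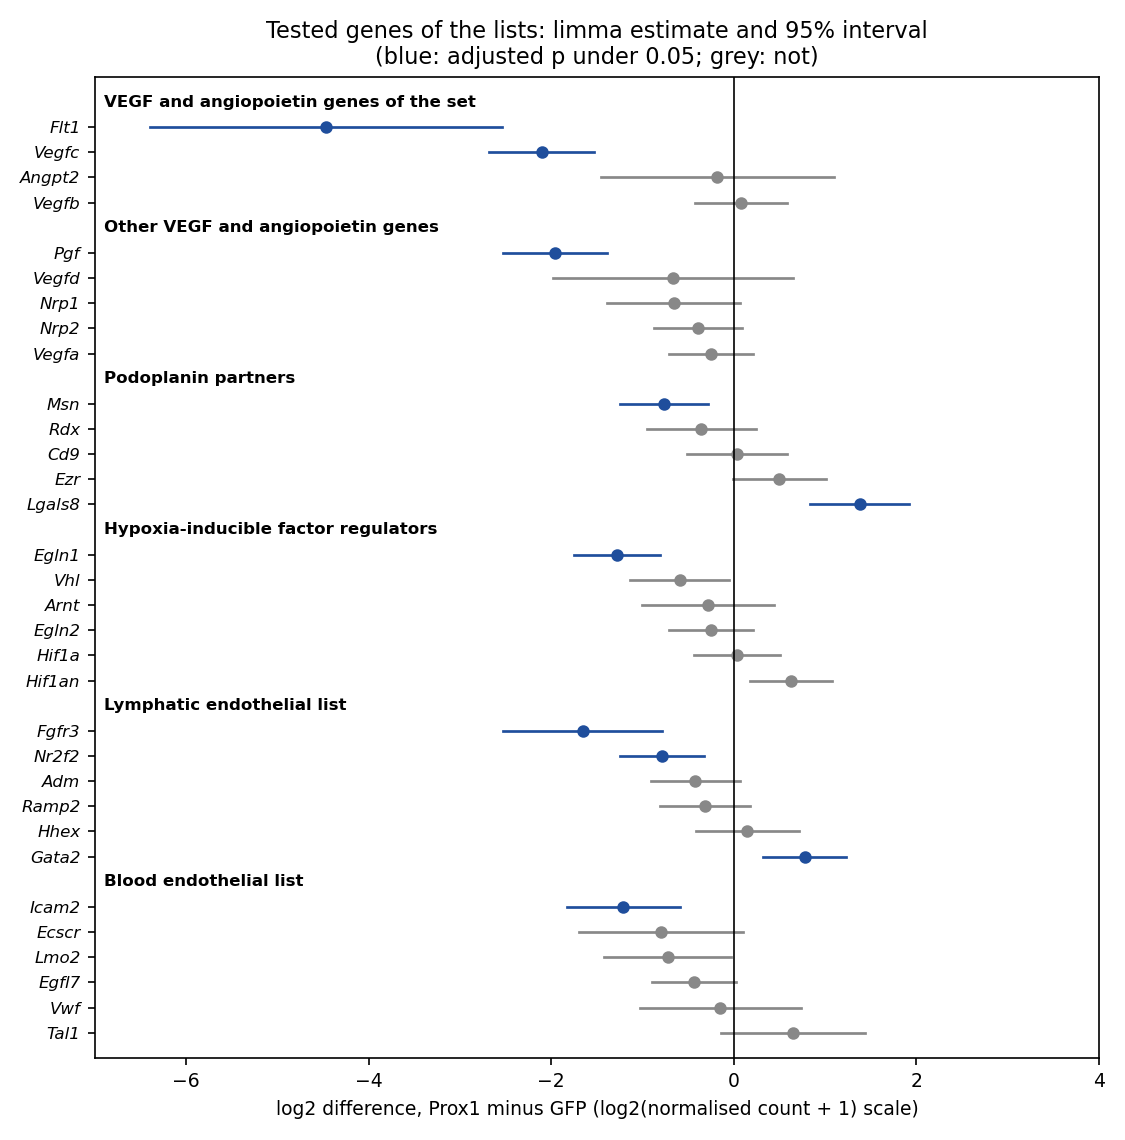
The log2 difference, Prox1 minus GFP, of each tested gene in 6 lists (the set, other VEGF and angiopoietin genes, podoplanin partners, hypoxia-inducible factor regulators, lymphatic and blood endothelial genes), with the limma estimate as a point and its 95% interval as a line; blue marks an adjusted p under 0.05. Of the genes plotted, which leave out the receptor signalling list, Flt1, Vegfc and Pgf have the lowest estimates, and Vegfb, Angpt2 and Vegfa have intervals that include 0.

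The genes most like Vegfc over the 4 libraries, by the Euclidean distance between centred log2 values, were Cd320 (distance 0.0844; 49 and 44 against 186 and 217 counts), Bean1 (0.112) and Syt7 (0.132). Those most like Flt1 were Cyp2s1 (0.293; 2 and 2 against 57 and 110 counts), Flnc (0.431) and Il6 (0.566).

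By position, few tested genes lay near Vegfc and Flt1, too few to describe either region. Within 500 kb of Vegfc 2 other genes were tested, 0 of them called, with a median log2 difference of -0.08. Within 500 kb of Flt1 6 others were tested, of which 1 fell, Polr1d, 450006 bases away, from 809 and 938 to 461 and 372 counts. Their median was 0.19. The nearest tested gene to Flt1, Pan3, was at 275 and 288 against 449 and 367 counts (limma adjusted p 0.124). Near Vegfb 27 others were tested, with 1 risen and 2 fallen, where 16.0% of all genes tested were called.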

How the data were processed

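Total RNA of the 2 Neuro2A lines, of integrity number above 7, was made into 3′ messenger RNA libraries and run on an Ion Proton, per the labels' protocols. The deposited table holds log2(normalised count + 1) for each library, per the file headers and values. Undoing the log2 gave whole numbers, so the authors had rounded. The submitters' processing notes name DESeq and mm10, with aligner, counting tool, strand use and annotation release not given in the sources used here. The deposited p-values and log2 fold changes are the authors'. The deposited signal columns hold normalised counts divided by a length per gene. Each sample's own file repeats that signal for 1860 genes, and 0 values differed.

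A count model was planned for raw counts only and was not run, as size factors had been applied. limma 3.58.1 (R 4.3.3; lmFit, eBayes with trend) compared Prox1 with GFP on log2(normalised count + 1), two-sided, over 13290 genes with a mean of at least 10, adjusted by Benjamini-Hochberg, with calls under 0.05. This scale understates the change of low genes, so ratios of mean normalised counts are given too. Floors and intervals treat normalised counts as reads and cover counting error only. The fit was tested on simulated data made from this comparison (13272 genes), at a dispersion of 0.0276. There it called 37.1% of genes changed 2-fold and 90.9% of those changed 4-fold, and 0 of 126 calls were false. These values describe the simulated data only. The share of false calls among the 2124 genes called in the measured libraries was not tested.

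All 10 genes were named. In other lists the rule named up to 2 called genes that rose most and 2 that fell most, and for Vegfc and Flt1 the 3 genes most alike over the libraries. A further gene that the rule picks is not reported here. Genes and lists were chosen with earlier results of these data known. Upstream sequences are RefSeq's, on GRCm38.p6. Alternatives covered scaling, minimum mean, pseudocount, variance trend, replicate block, each library left out, panel genes left out and, added after the data were seen, precision weights (vooma).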

Additional observations from a re-analysis of the deposited data

How the results depend on the processing

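Vegfc and Flt1 were the 2 genes of the set called. Both stayed called, and lower, with TMM or cyclic loess scaling, a pseudocount of 5 or 0.5, no variance trend, panel genes left out and precision weights (vooma, chosen after the data were seen). With a mean of at least 50, Vegfc alone was called (1), as Flt1 was no longer tested. With no minimum mean 0 of the set and 0 of all genes were called (3 and 5032 at an unadjusted p under 0.05). With 1 library left out, the log2 difference was between -2.27 and -1.94 for Vegfc and between -4.86 and -4.09 for Flt1. The count over all genes was 2124, and 1057 without the variance trend. Vegfb turned from 0.08 to -0.04 without Prox1 replicate 2 and to -0.12 without GFP replicate 2, and Angpt2 from -0.18 to 0.28 without Prox1 replicate 2. With 1 library left out in turn they ranged from -0.12 to 0.27 and from -0.64 to 0.28. Neither was called in any setting. The cause was not tested. With the replicate block 2528 genes and the same 2 of the set were called, and the block ended no call of a named gene. Same-numbered libraries did not deviate together (r = -0.05 across genes). Whether they were handled together is not given in the sources used here. Scaling moved the median of all genes by under 0.1 on the log2 scale. All 19 calls of single genes that the naming rule picks, Vegfc and Flt1 among them, ended with no minimum mean and with any 1 library left out, 7 ended without the variance trend, and that of Pik3ca ended with a pseudocount of 0.5. At this depth genes below about 10 counts, such as Flt4, Kdr and Tek, allow no statement on a change.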
